A study of Mus musculus with 6 samples.

Results

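The MYC network was followed here through 10 genes: Mycn, Myc and Mycl, their dimer partner Max, and the antagonists Mxd1, Mxd3, Mxd4, Mxi1, Mnt and Mga. Every probe set annotated to exactly 1 of these symbols was taken, which gave 27 of the 45101 probe sets on the array and 10 of the 18193 genes that have a probe set of their own. Each probe set was kept separate, and 0 of the 27 were shared with another gene. The network was chosen by the measured difference of Mycn, which had the third-largest positive difference between the groups among 45037 probe sets that are not controls. The values of Mycn are therefore a description, with no test.

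The arrays measured RNA of cultured mouse lymphatic endothelial cells (LEC), the cells that line lymphatic vessels. The 3 tumour LEC arrays came from C57BL/6 mice carrying fibrosarcomas of T241/VEGF-C/GFP cells, a mouse tumour line made to secrete the lymphatic growth factor VEGF-C and to carry a green fluorescent protein; sex and age are not given for these mice. The 3 normal LEC arrays came from tail skin of 8-week-old female C57BL/6 mice. Cells of both groups were grown in EGM-2 medium on gelatin and selected with LYVE-1 antibodies on magnetic beads, and 50 ng of RNA was labelled for each array. The titles name tumour cells for the first group, and its source fields name LEC. Most tumour cells had been lifted off with EDTA before the LEC were taken. Tissue of origin, the way the cells were isolated and the presence of a tumour cannot be told apart between the groups. Nothing in the labels says that arrays of a group came from separate animals or cultures, so the p-values measure the spread between these arrays, which may be technical.

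MYC family proteins (MYC, MYCN and MYCL) are transcription factors that bind DNA as dimers with MAX, most often at the E-box CACGTG, and raise the transcription of genes for ribosome production, metabolism and the cell cycle. The MXD proteins, MXI1, MNT and MGA also pair with MAX, occupy the same sites and recruit corepressors, so the output of the network depends on which partners MAX has. MYC is used by most dividing cells, whereas MYCN is best known from the embryonic nervous system and from neuroblastoma. Endothelial cells use MYC in vessel growth.

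All values below are deposited log2 expression values, on which a step of 1 is a doubling, and all differences are tumour LEC minus normal LEC. A value was called at background where it lay at or below the highest of 27 control probe sets for absent bacterial RNA on the same array, which was 3.40 to 3.71. Between 55.6% and 58.4% of probe sets were at or below that limit on each array. Array medians were 2.99 to 3.02 on 5 arrays and 3.15 on tumour array 3. Markers of LEC were checked against the label. Lyve1, the hyaluronan receptor used for the selection, was at 14.77, 14.11 and 14.91 on tumour arrays 1, 2 and 3 and at 14.02, 13.65 and 14.32 on the normal arrays. Prox1, the transcription factor that sets lymphatic identity, was at 8.92, 7.77 and 8.47 on the tumour arrays and at 7.93, 7.73 and 8.30 on the normal arrays. Both were far above background on all 6 arrays, and of the 6 lymphatic markers measured Mmrn1 was at background on all of them.

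Mycn encodes the MYC family member that stands in for MYC in embryonic tissues. Its brightest probe set, 1425923_at, read 13.75, 13.33 and 13.08 on tumour arrays 1, 2 and 3 and 2.90, 2.94 and 2.90 on normal arrays 1, 2 and 3. All 3 tumour arrays lay far above background and all 3 normal arrays within it. Tumour LEC averaged 13.39 ± 0.34 and normal LEC 2.91 ± 0.02 (SD, n = 3 each), a difference of 10.47 (SE 0.18). Because normal LEC were at background, the fold change is a bound, and Mycn signal was at least 990.5-fold higher in tumour LEC.

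The other Mycn probe sets did not give this size of difference. Probe set 1417155_at read 5.30, 6.55 and 5.20 on the tumour arrays and 3.50, 3.54 and 3.67 on the normal arrays, a difference of 2.12 (SE 0.38). The groups did not overlap, the highest tumour value was on array 2 rather than array 1, and the normal values lay just above the background limits of their arrays. Probe set 1425922_a_at read 3.24, 3.30 and 3.48 on the tumour arrays and 3.21, 3.23 and 3.19 on the normal arrays, at background on all 6. Levels of different probe sets cannot be set against each other. Their differences can be, but only where signal is above background, which 1425922_a_at was not on any array. The gap between the largest and smallest difference among the probe sets of 1 gene was 10.35 for Mycn, the largest of 9010 genes with several probe sets. The next were 8.79 for Col1a2, a chain of type I collagen, and 8.03 for S1pr3, a sphingosine-1-phosphate receptor. The smallest Mycn difference was the 0.13 of 1425922_a_at, so this gap is taken against a probe set without detected signal. Mycn was chosen by the difference of 1425923_at, so the rank of its gap is a description as well. The probe sets 1425923_at and 1425922_a_at were designed on the same sequence record and 1417155_at on another. Where their probes lie in the transcript was not analysed here, and the cause of the gap was not tested.

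**Figure D1:**
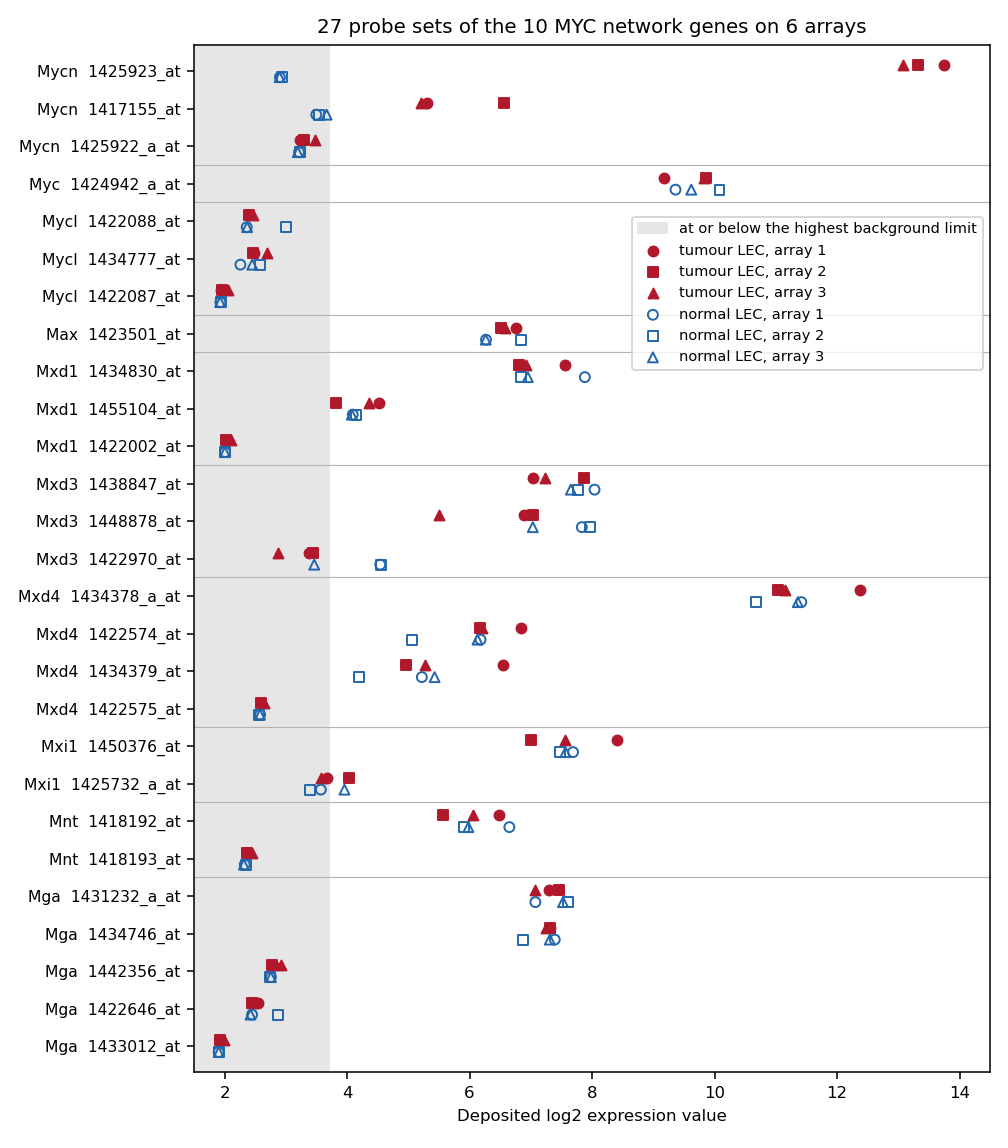
Deposited log2 value of each of the 27 probe sets (rows, named by gene and probe set) on 3 tumour LEC arrays (filled) and 3 normal LEC arrays (open), with symbols for array numbers and grey for values at or below the highest background limit of 3.71. Mycn 1425923_at lies at 13.08 to 13.75 in tumour LEC and 2.90 to 2.94 in normal LEC, while the groups overlap for 17 of the 27.

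Of the 27 probe sets, 10 were at background on all 6 arrays, and 9 of the 10 genes were above background on at least 1 array. The tests covered 27022 probe sets with a mean above 2.71, the 40th percentile, and 19 of the 27 passed that filter. Mga 1442356_at, with a mean of 2.79, was just inside it and Mxd4 1422575_at, with 2.59, just outside. In the limma fit 60 of 27022 probe sets, 0.222%, passed a Benjamini-Hochberg adjusted p of 0.05, and 1 of the 19 did, which was Mycn 1425923_at. By direction, 0.0481% of all kept probe sets were called higher and 0.174% lower in tumour LEC. Without Mycn, 0 of 16 probe sets passed in the limma fit, and 1 of them, Mxd3 1422970_at, had an unadjusted p under 0.05, against 13.8% of all kept probe sets. Choosing the network by Mycn fixed the call of Mycn 1425923_at, and nothing is read from these counts for Mycn.

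Among the 19, the tumour arrays all lay above the normal arrays for 4 (23.5% of all kept probe sets did so) and all below for 1 (10.1%). Over all 27 the counts were 9 above, 1 below and 17 overlapping, where 45.5% of all 45037 probe sets were above and 6.09% below, and the median difference was 0.06, against 0.05 for all genes. Of the 24 probe sets of the other genes, 23 differed by less than 1 log2 unit.

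Myc, the family member that most dividing cells use, was well above background in both groups. Its single probe set, 1424942_a_at, read 9.17, 9.86 and 9.83 on tumour arrays 1, 2 and 3 and 9.36, 10.08 and 9.62 on normal arrays 1, 2 and 3. The groups overlapped and the difference was -0.07 (SE 0.27, limma adjusted p = 0.899). The 95% interval of the difference ran from -0.75 to 0.61, so a change of 2-fold in either direction lay outside it. Only differences between these limits lay inside. Without tumour array 1 the difference was 0.16.

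Mycl, the third member, was first known from human small cell lung cancer. Its 3 probe sets were at background on all 6 arrays and were not tested. Their values ranged from 1.95 to 2.69 in tumour LEC and from 1.93 to 3.01 in normal LEC.

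Max, the dimer partner that the other members share, read 6.75, 6.51 and 6.58 on the tumour arrays and 6.27, 6.84 and 6.26 on the normal arrays. Normal array 2 was above all 3 tumour arrays and the other normal arrays below them. The difference was 0.16 (SE 0.19, limma adjusted p = 0.660), with a 95% interval from -0.31 to 0.63.

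Mxd3, an antagonist known from dividing cells in S phase, had 3 probe sets in the fit. Probe set 1448878_at read 6.88, 7.04 and 5.51 on the tumour arrays and 7.83, 7.97 and 7.03 on the normal arrays, a difference of -1.14 (SE 0.49, limma adjusted p = 0.385). The groups overlapped only in that tumour array 2 lay marginally above normal array 3, and the difference was -0.65 without tumour array 3 and -0.61 with array weights. Probe set 1422970_at read 3.38, 3.45 and 2.88 on the tumour arrays, all at background, and 4.54, 4.56 and 3.46 on the normal arrays, all above it. That is at least 1.53-fold lower in tumour LEC, with a fitted difference of -0.95 (SE 0.35, limma adjusted p = 0.333), the smallest adjusted p outside Mycn. The groups did not overlap, and array 3 was the lowest of each group. The third probe set, 1438847_at, read 7.04, 7.87 and 7.24 on the tumour arrays and 8.04, 7.77 and 7.65 on the normal arrays, a difference of -0.44 (limma adjusted p = 0.478) that was -0.27 without tumour array 1 and -0.03 with array weights. All 3 differences were below 0, and 0 of the 3 passed the limma test.

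Mxd4, an antagonist associated with cells that leave the cycle, was above background by 3 of its 4 probe sets. Probe set 1434378_a_at read 12.38, 11.04 and 11.14 on the tumour arrays and 11.42, 10.68 and 11.36 on the normal arrays. Tumour array 1 was the highest of the 6 and normal array 2 the lowest, and the other tumour arrays lay below the other normal arrays. The difference was 0.37 (SE 0.43, limma adjusted p = 0.650), and it was -0.06 without tumour array 1 and 0.13 without normal array 2. Probe sets 1422574_at and 1434379_at differed by 0.61 and 0.65 (limma adjusted p = 0.497 and 0.556), again with tumour array 1 highest and normal array 2 lowest. Without tumour array 1 they differed by 0.39 and 0.17, and without normal array 2 by 0.25 and 0.27. The probe set 1422575_at was at background throughout.

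Mxd1, the founding member of the MXD group and a gene of differentiating cells, read 7.56, 6.81 and 6.92 by 1434830_at on the tumour arrays and 7.88, 6.84 and 6.95 on the normal arrays. Array 1 was the highest of each group and the other 4 arrays lay close together. The difference was -0.13 (SE 0.35, limma adjusted p = 0.848), and it turned to 0.03 after quantile normalization of the arrays. Probe set 1455104_at differed by 0.13 (limma adjusted p = 0.729) and 1422002_at was at background.

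Mxi1, also called Mxd2 and known as a gene induced in hypoxia, read 8.41, 7.01 and 7.55 by 1450376_at on the tumour arrays and 7.69, 7.48 and 7.57 on the normal arrays. The tumour arrays spread on both sides of the normal ones, with an SD of 0.70 for tumour LEC and 0.11 for normal LEC (n = 3 each). The difference was 0.08 (SE 0.36, limma adjusted p = 0.910). Probe set 1425732_a_at lay close to background, at 3.57 to 4.03 in tumour LEC and 3.40 to 3.96 in normal LEC, with a difference of 0.12.

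Mnt, the antagonist that most cells express, read 6.49, 5.57 and 6.05 by 1418192_at on the tumour arrays and 6.65, 5.91 and 5.98 on the normal arrays, and its other probe set was at background. The difference was -0.15 (SE 0.31, limma adjusted p = 0.806) and 0.08 after quantile normalization. Mga, a very large protein that joins MAX to a variant polycomb complex, read 7.29, 7.47 and 7.07 by 1431232_a_at on the tumour arrays and 7.07, 7.60 and 7.53 on the normal arrays. Its difference was -0.13 (SE 0.19, limma adjusted p = 0.723), and 0.03 after quantile normalization. Probe set 1434746_at differed by 0.10 (limma adjusted p = 0.746), and the remaining 3 Mga probe sets were at background. For Mnt and Mga the groups overlapped by each probe set above background.

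**Figure D2:**
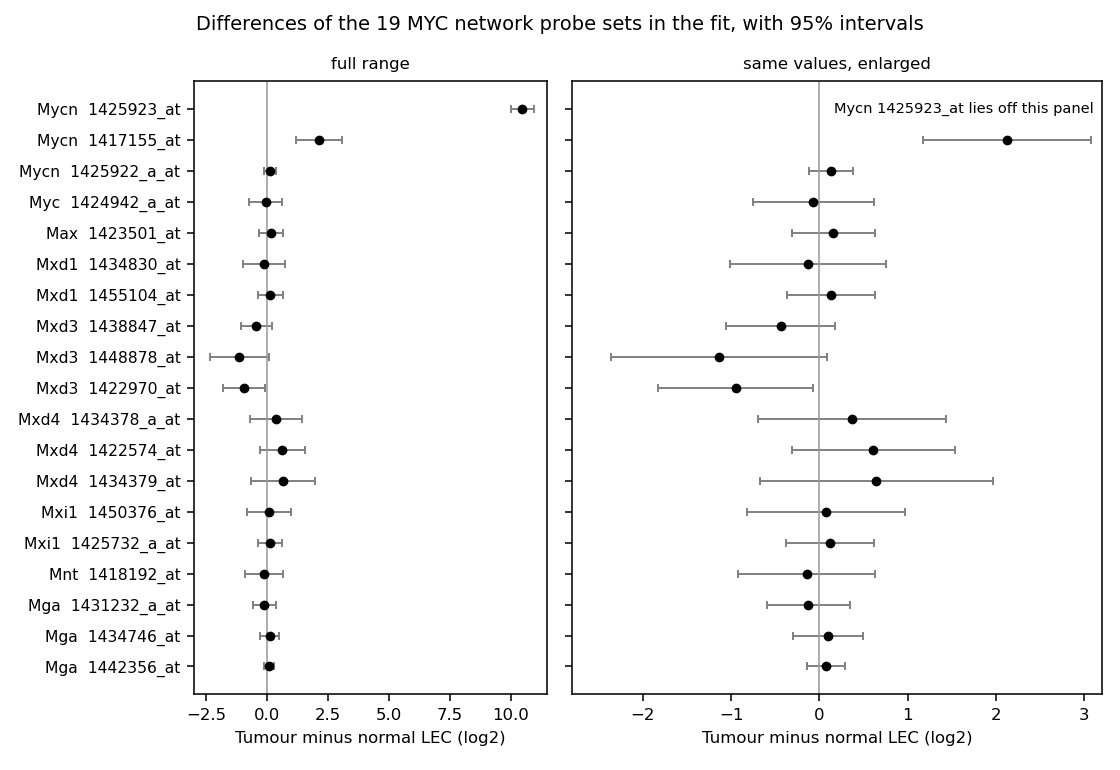
Tumour minus normal LEC difference in log2 (points) with its 95% interval (bars) for the 19 probe sets in the fit, over the full range on the left and enlarged on the right. Mycn 1425923_at stands at 10.47, Mycn 1417155_at at 2.12 and Mxd3 1448878_at at -1.14, and the intervals of Myc and Max include 0.

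The upstream sequence of Mycn is shown because its transcript had the largest difference of the network. That of Mnt is shown as an example with an E-box and a GC box, which Mxd4 also had. Each printed sequence is the 250 bases before the annotated start in RefSeq, build GRCm38.p6, written 5′ to 3′ in the direction of the gene. GC boxes (GGGCGG or its reverse complement CCGCCC) and E-boxes (CACGTG, which is its own reverse complement) are in capitals.
Mycn, chr12:12941837-12942086, minus strand: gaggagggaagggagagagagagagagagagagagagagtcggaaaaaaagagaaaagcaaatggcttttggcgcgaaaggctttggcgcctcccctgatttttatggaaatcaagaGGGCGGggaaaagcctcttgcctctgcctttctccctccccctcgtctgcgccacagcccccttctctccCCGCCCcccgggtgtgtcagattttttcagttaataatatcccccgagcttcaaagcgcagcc
Mnt, chr11:74830674-74830923, plus strand: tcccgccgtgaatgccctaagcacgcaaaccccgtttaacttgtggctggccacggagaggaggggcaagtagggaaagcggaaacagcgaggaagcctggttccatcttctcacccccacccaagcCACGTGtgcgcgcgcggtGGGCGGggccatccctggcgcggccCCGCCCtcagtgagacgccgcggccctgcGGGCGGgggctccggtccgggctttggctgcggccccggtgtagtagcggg

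The Mycn stretch had 2 GC boxes, motifs bound by SP1-type factors, and no canonical E-box. The Mnt stretch had 3 GC boxes and an E-box at position -123 from the start. RefSeq promoters matched 9 of the 10 genes, and 2 of the 9, Mxd4 and Mnt, had an E-box in these 250 bases, while 8 of the 9 had a GC box. Of 27025 mouse genes with promoters of the same length, 6.86% had an E-box and 35.4% a GC box. A match describes letters and not a bound site, and a window without one says nothing about the factor.

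The genes beside Mycn on chromosome 12 were compared because its neighbours can share a chromosome segment with it. Ddx1 and Nbas, the nearest on one side, are the genes that lie next to MYCN in human neuroblastoma amplicons. Ddx1, an RNA helicase, read 11.65, 11.98 and 11.98 by 1415915_at on the tumour arrays and 11.96, 12.20 and 12.00 on the normal arrays, a difference of -0.19 (SE 0.14, limma adjusted p = 0.535). Nbas, a factor in membrane traffic, read 7.83, 8.25 and 8.16 by 1436143_at on the tumour arrays and 8.17, 8.22 and 7.94 on the normal arrays, a difference of -0.03 (limma adjusted p = 0.920). The groups overlapped for both genes.

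On the other side Cyria, a regulator of the actin cytoskeleton, read 9.01, 8.15 and 8.95 on the tumour arrays and 6.61, 7.75 and 7.88 on the normal arrays. Its groups did not overlap, but the difference of 1.29 (SE 0.42) did not pass (limma adjusted p = 0.290). The kinase-like gene Trib2 had the lowest difference among the neighbours, -1.83 by 1426640_s_at (limma adjusted p = 0.162). Over the 23 probe sets of the 10 neighbours, differences ran from -1.83 to 1.29 with a median of -0.19. Of the 18 in the fit 1 passed, beside 0.222% of all kept probe sets. It was Smc6 1422910_s_at, a gene of a DNA repair complex, at 8.14, 8.09 and 7.94 on the tumour arrays and 9.11, 9.34 and 9.26 on the normal arrays (difference -1.18, SE 0.11, limma adjusted p = 0.0431). The brightest Smc6 probe set, 1448828_at, differed by -0.28 (limma adjusted p = 0.534). Smc6 1448829_at, 1417736_at and 1422909_at differed by -0.84, -0.33 and -0.15 (limma adjusted p = 0.221, 0.401 and 0.742). The groups did not overlap for 1448829_at and 1417736_at. Smc6 1460069_at, at background in normal LEC, differed by 0.29 (limma adjusted p = 0.379).

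**Figure D3:**
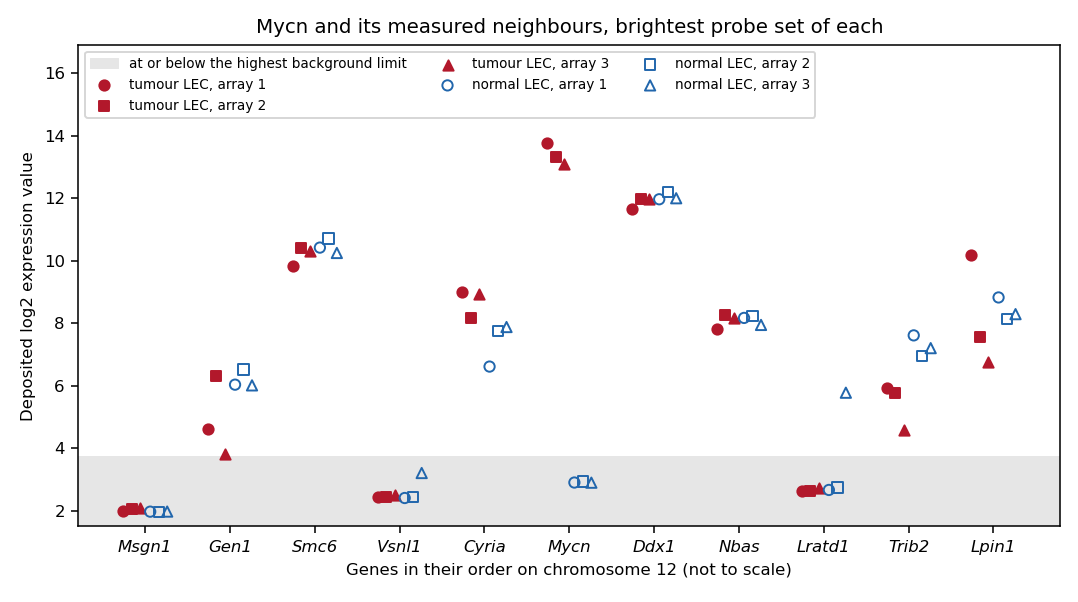
Deposited log2 value (vertical axis) of the brightest probe set of Mycn and of the 10 nearest measured genes in their order on chromosome 12 (horizontal axis, not to scale), for 3 tumour LEC arrays (filled) and 3 normal LEC arrays (open), with grey for values at or below the highest background limit of 3.71. Mycn alone among these probe sets has tumour values above 13 and normal values below 3; Ddx1 reads 11.65 to 11.98 in tumour LEC and 11.96 to 12.20 in normal LEC.

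Genes around the network were taken from fixed lists, with the brightest probe set of each gene. Among all 12955 genes in the fit, 28 or 0.216% passed the limma test, 46.9% had a difference below 0 and the median difference was 0.03. At an unadjusted p under 0.05, 9.11% of them were lower and 7% higher in tumour LEC. In the wider network of MLX, its partners and related factors, 8 genes were measured and 6 tested, of which 0 passed and 0 had an unadjusted p under 0.05, and the median of the 8 was -0.19. The 2 with the smallest p were Mlxip, a glucose-sensing partner of MLX, at -0.34 (limma adjusted p = 0.480), and Zbtb17, the MYC-binding factor MIZ1, at -0.27 (0.494).

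Coactivators that MYC proteins recruit also had 0 of 13 past the threshold (2 lower and 0 higher at an unadjusted p under 0.05), with a median of -0.24. Kat2a, a histone acetyltransferase, read 8.57, 9.19 and 9.06 on the tumour arrays and 9.57, 10.21 and 9.59 on the normal arrays (difference -0.85, SE 0.25, limma adjusted p = 0.257). All 3 tumour arrays lay below all 3 normal arrays, as they did for Trrap, the scaffold of such acetyltransferase complexes (difference -0.53, limma adjusted p = 0.326). Of 6 corepressor genes 0 passed (1 lower and 1 higher at an unadjusted p under 0.05) and the median was 0.04. The histone deacetylases Hdac1 and Hdac2 differed in opposite directions, by 0.28 and -0.47 (limma adjusted p = 0.322 and 0.317), and for both the groups did not overlap.

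Genes that control the stability of MYC proteins had 0 of 13 past the threshold (3 lower and 0 higher at an unadjusted p under 0.05), with 11 differences below 0 and a median of -0.40. Axin1, a scaffold for GSK3, read 6.10, 6.20 and 5.40 on the tumour arrays and 6.76, 7.09 and 6.71 on the normal arrays (difference -0.95, SE 0.25, limma adjusted p = 0.221), and Stub1, a ubiquitin ligase, differed by -0.31 (limma adjusted p = 0.230). Of 13 genes known to act above Mycn 7 were tested and 0 of these passed (1 lower and 0 higher at an unadjusted p under 0.05), and the median of the 13 was 0.08. Twist1, a factor that works with MYCN in neuroblastoma, read 4.01, 2.78 and 3.96 on the tumour arrays and 10.03, 7.40 and 6.95 on the normal arrays, a difference of -4.54 (SE 0.89, limma adjusted p = 0.131). Shh, a ligand that induces Mycn in the cerebellum, differed by 0.32 (limma adjusted p = 0.370).

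Most genes known as activated targets of MYC proteins had lower values in tumour LEC, although 0 of them passed the limma test. Of 92 such genes, 84 or 91.3% had a difference below 0, against 46.9% of all genes in the fit, and their median was -0.43. At an unadjusted p under 0.05, 14 of the 92 were lower and 2 higher, against the 9.11% lower and 7% higher given above. The genes of a list share arrays and vary together, so these counts are a description and no test of the list. Median centring of the arrays gave a median of -0.49 and quantile normalization -0.43. The median was -0.20 (74 of 92 below 0) with arrays weighted by their quality, -0.19 (58 of 92) without tumour array 1 and -0.22 (75 of 92) without normal array 2.

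By role, all 33 genes of ribosome production had a difference below 0 (32 after quantile normalization), with a median of -0.42, but without tumour array 1 the median was 0.02 and 15 of 33 lay below 0. It was -0.17 without normal array 2 and also -0.17 with array weights. Las1l, which processes ribosomal RNA, read 7.88, 8.43 and 8.67 on the tumour arrays and 9.11, 9.51 and 8.88 on the normal arrays (difference -0.84, SE 0.26, limma adjusted p = 0.276). Fbl, the methyltransferase fibrillarin, differed by -0.71 (limma adjusted p = 0.381). The nucleolar proteins Ncl and Npm1, chosen after their values were seen because they are among the best known targets, differed by -0.50 and -0.25 (limma adjusted p = 0.460 and 0.484).

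Metabolic targets had 14 of 18 differences below 0 and a median of -0.52, which was -0.32 with array weights. Slc7a5, a leucine transporter, read 7.31, 7.87 and 7.06 on the tumour arrays and 8.94, 9.30 and 7.96 on the normal arrays (difference -1.32, SE 0.40, limma adjusted p = 0.265), and Shmt1, of one-carbon metabolism, differed by -0.71 (limma adjusted p = 0.247). The groups did not overlap for either gene. Some metabolic targets ran the other way. Odc1, the polyamine enzyme and a textbook MYC target, differed by 0.47 (limma adjusted p = 0.569) and Ctps, which makes CTP, by 0.74 (limma adjusted p = 0.302); both were named after their values were seen.

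Mitochondrial and chaperone targets were all below 0, 13 of 13, with a median of -0.31 that was -0.15 (8 of 13 below 0) without tumour array 1, -0.15 without normal array 2 and -0.13 with array weights. Tfb2m, a mitochondrial transcription factor, and Hspd1, the chaperonin HSP60, differed by -0.43 and -0.63 (limma adjusted p = 0.315 and 0.421). Translation targets had 9 of 12 below 0 and a median of -0.24, which was -0.06 without tumour array 1, -0.07 without normal array 2 and -0.09 with array weights. Eif4ebp1, the inhibitor of cap binding, differed by -0.51 and the importin Ipo4 by -0.59 (limma adjusted p = 0.289 and 0.290).

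Cell cycle targets had 15 of 16 below 0 and a median of -0.83, which was -0.24 with array weights and -0.59 without tumour array 3. Cdk4, the kinase that drives G1, read 12.15, 12.21 and 12.17 on the tumour arrays and 12.45, 12.73 and 12.54 on the normal arrays (difference -0.40, SE 0.11, limma adjusted p = 0.221). Mcm7, of the replicative helicase, read 11.09, 12.15 and 10.42 on the tumour arrays and 12.82, 13.00 and 12.26 on the normal arrays (difference -1.47, SE 0.48, limma adjusted p = 0.288). Every tumour array was below every normal array for both genes, and Mcm7 spread much more than Cdk4 within the tumour arrays.

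Genes known to be repressed by MYC proteins had 8 of 12 differences above 0 and a median of 0.49, and 0 passed (4 higher and 0 lower at an unadjusted p under 0.05). The median was 0.20 without normal array 2. Thbs1, the angiogenesis inhibitor thrombospondin 1, read 11.19, 11.75 and 12.37 on the tumour arrays and 8.78, 9.00 and 9.91 on the normal arrays (difference 2.54, SE 0.42, limma adjusted p = 0.101). Cdkn1c, the cell cycle inhibitor p57, read 9.88, 10.04 and 10.41 on the tumour arrays and 7.96, 9.42 and 8.00 on the normal arrays (difference 1.65, SE 0.44, limma adjusted p = 0.222). The groups did not overlap for either.

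**Figure D4:**
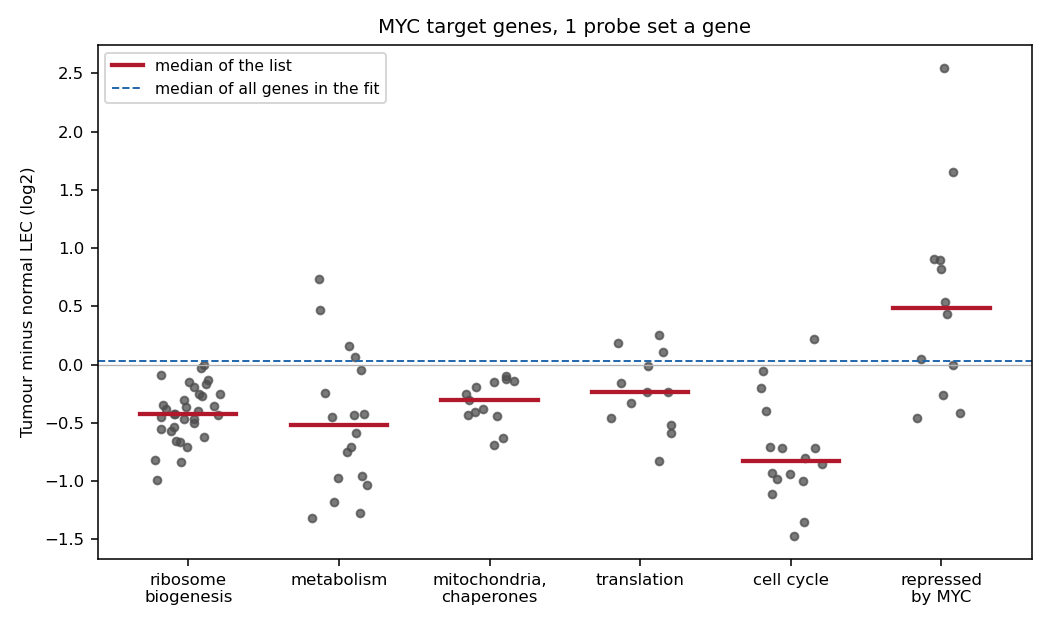
Tumour minus normal LEC difference in log2 (vertical axis) of each measured gene (points) in 6 lists of MYC targets (horizontal axis), with the median of each list (red bar) and of all genes in the fit (dashed line, 0.03). All 33 ribosome genes lie below 0 (32 after quantile normalization), the cell cycle median is -0.83 and the median of repressed genes is 0.49.

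To show where MYC dimers could bind among these targets, windows of 30 bases around E-boxes (capitals) are given for some genes. They are from the cell cycle, ribosome production, chaperone and metabolic lists. Windows of the translation targets Eif4a1, Eif4e, Eif5a and Iars, and of Exosc5, Nme1 and Paics, are not shown. Positions count from the annotated start in RefSeq, build GRCm38.p6.
Cdk4, chr10:127063351-127063380, plus strand, E-box starting at -172: atggcagccagtCACGTGccacacagcgta
Cdk4, chr10:127063405-127063434, plus strand, E-box starting at -118: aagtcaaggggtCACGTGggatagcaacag
Cdk4, chr10:127063425-127063454, plus strand, E-box starting at -98: atagcaacaggtCACGTGgccgtcagggcc
Nop2, chr6:125131811-125131840, plus strand, E-box starting at -60: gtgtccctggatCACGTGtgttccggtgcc
Imp4, chr1:34439696-34439725, plus strand, E-box starting at -121: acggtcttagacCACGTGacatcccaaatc
Hspd1, chr1:55088306-55088335, minus strand, E-box starting at -80: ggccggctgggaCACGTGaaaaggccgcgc
Ldha, chr7:46845647-46845676, plus strand, E-box starting at -145: ggtgtcgcagcaCACGTGgagccactcttg
Ldha, chr7:46845744-46845773, plus strand, E-box starting at -48: cggcccagcctaCACGTGggttcccgcacg

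Cdk4 had 3 E-boxes within 250 bases, and Ldha, the lactate dehydrogenase, had 2. RefSeq promoters matched 78 of the 92 activated targets, and 12 of the 78, or 15.4%, had an E-box in these 250 bases, against 6.86% of all genes with a promoter in the table. The 12 had a median difference of -0.28, with 10 below 0, and the 66 without one had a median of -0.44, with 61 below 0. Among the 12, those above 0 were Eif4e (0.18) and Eif4a1 (0.11), whose windows are not shown. Cdk4 has its values above. Ldha differed by -0.25 (limma adjusted p = 0.449), the ribosomal RNA factor Imp4 by -0.35 (limma adjusted p = 0.577) and the ribosomal RNA methyltransferase Nop2 by -0.03 (limma adjusted p = 0.977).

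The target lists differed between arrays of the same group. For each list the median deviation of its genes from their own means over the 6 arrays was taken. For ribosome production it was -0.95, 0.09 and 0.28 on tumour arrays 1, 2 and 3 and -0.08, 0.68 and 0.07 on normal arrays 1, 2 and 3. Tumour array 1 stood below the rest and normal array 2 above them, and the other 4 overlapped. Metabolic targets gave -0.60, -0.01 and -0.18 on the tumour arrays and 0.14, 0.60 and 0.04 on the normal arrays, with no overlap. Cell cycle targets gave -0.60, 0.25 and -0.91 on the tumour arrays and 0.41, 0.73 and 0.26 on the normal arrays. Repressed targets gave 0.59, -0.14 and 0.23 on the tumour arrays and -0.18, -0.59 and -0.01 on the normal arrays.

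Mycn 1425923_at was highest on tumour array 1, the array on which the ribosome targets were lowest. Myc 1424942_a_at was lowest on tumour array 1 (9.17) and highest on normal array 2 (10.08), as the ribosome targets were. A link of either gene to the targets was not tested. The cell cycle median was -0.74 without tumour array 1 and -0.70 without normal array 2.

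Markers of other cell types also differed between the arrays. The 9 fibroblast markers gave median deviations of -1.87, -1.97 and -2.09 on the tumour arrays and 4.49, 1.13 and 0.94 on the normal arrays, and 8 of 9 had a difference below 0. In the limma test 1 of the 9 passed, as lower, beside 0.216% of all genes in the fit. By an unadjusted p under 0.05, 6 were lower and 1 higher, against 9.11% and 7% of all genes in the fit. Col1a2 read 3.61, 3.16 and 2.76 on the tumour arrays, 2 of them at background, and 14.29, 11.69 and 11.70 on the normal arrays. Pdgfra, a receptor of fibroblasts, read 5.74, 4.87 and 4.66 on the tumour arrays and 11.75, 9.48 and 9.13 on the normal arrays. The 8 leukocyte markers gave 1.60, -0.36 and -0.41 on the tumour arrays and -0.08, -0.19 and 0.12 on the normal arrays. Ptprc, which encodes the leukocyte antigen CD45, read 5.92, 3.06 and 3.13 on the tumour arrays and 3.02, 2.96 and 3.36 on the normal arrays, so it was above background on tumour array 1 alone. The 8 general endothelial markers gave median deviations of 1.00, 0.41 and 0.53 on the tumour arrays and -1.53, -0.35 and 0.23 on the normal arrays. Of these markers 7 had a difference above 0 and 1 below, with a median difference of 1.23, and 0 passed the limma test. Among them Pecam1 and Cdh5 differed by 1.44 and 1.01 (limma adjusted p = 0.426 and 0.396).

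Of 10 neural markers measured, among them Phox2a, Th and Dbh of sympathetic neurons, 7 had all 6 arrays at background, and Dbh was above it on 1 normal array. Gap43 and Stmn2 were above it on some arrays of both groups. Differences of the 10 ran from -4.75 to 0.47, with a median of 0.05. Of the 4 in the fit 0 passed the limma test, and 1 was lower in tumour LEC at an unadjusted p under 0.05, where 9.11% of all genes in the fit were. In such bulk RNA fewer cells of a type and less RNA per cell cannot be told apart. The part of these cell types in the values of Mycn, its partners and the target lists was not tested.

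**Figure D5:**
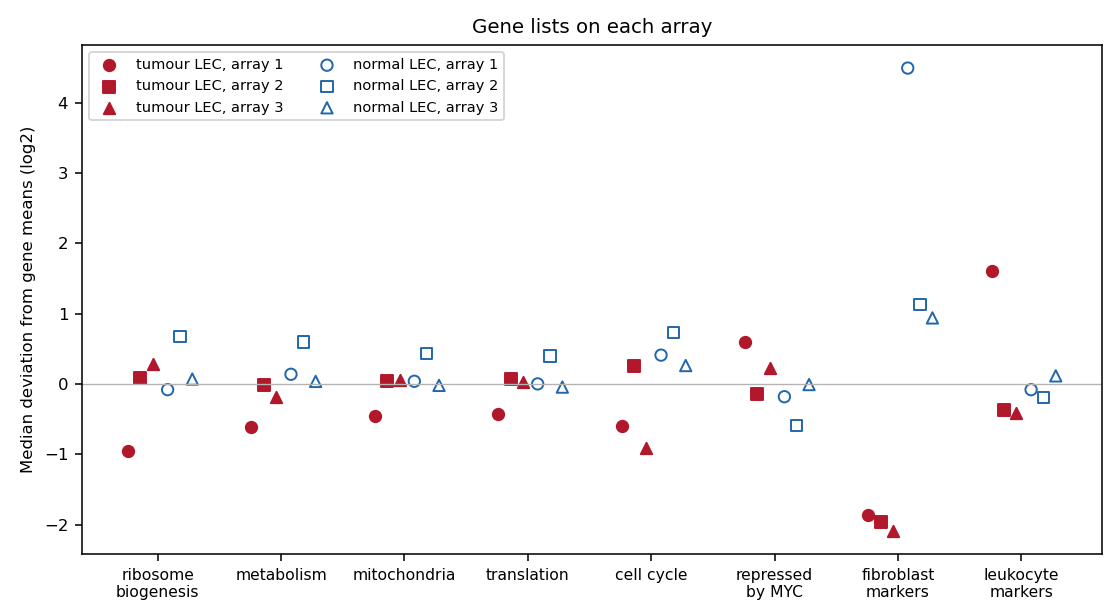
Median deviation in log2 (vertical axis) of the genes of each list (horizontal axis) from their own means over the 6 arrays, on 3 tumour LEC arrays (filled) and 3 normal LEC arrays (open). Ribosome targets lie at -0.95 on tumour array 1, where the leukocyte markers reach 1.60, and fibroblast markers lie at -2.09 to -1.87 in tumour LEC and 0.94 to 4.49 in normal LEC.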

How the data were processed

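RNA of 3 tumour LEC and 3 normal LEC arrays (Affymetrix, 45101 probe sets, 50 ng of RNA each) was compared. Each probe set has 1 deposited log2 value an array. The submitters' processing notes name RMA and GCRMA, methods that correct background, normalize arrays against each other and summarise probes, without saying from which one the authors took these values. Dim signals can end at a floor with either method, which limits what differences between dim values mean.

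Probe sets were named through the platform annotation with symbols updated through RefSeq identifiers: 34945 were assigned to 1 gene, 932 to several and 9160 to none, beside 64 controls, and all 27 probe sets of the network matched. The comparison used limma 3.58.1 in R 4.3.3 (lmFit and eBayes, no trend), two-sided, with Benjamini-Hochberg adjustment over 27022 probe sets above the 40th percentile of the mean (2.71). A group was at background where its 3 arrays lay at or below their limits, and a fold against it was computed from the limits and is a bound. The smallest p that an exact permutation of 3 against 3 arrays allows is 0.1, and that test was left out. The number of arrays limits the precision. On simulated data with 27022 probe sets for this comparison, changes of 1, 2, 4 and 8 log2 units were recovered in 30%, 66%, 86% and 98% of cases, with 5 false calls among 145.

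The genes of the network and all gene lists were chosen with earlier results of these data known. Named genes were every probe set of the 10 genes, the 5 nearest measured genes on each side of Mycn, for each list the genes past the threshold or, where there were none, the 2 with the smallest p, fixed cell type markers, and the 5 named probe sets nearest in pattern to Mycn. One item is not reported here. Alternatives changed the filter, normalization, variance model, array weights, unit of test, floor and replicates, and added the replicate number as a block.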

Additional observations from a re-analysis of the deposited data

How the results depend on the processing

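The difference of Mycn 1425923_at, whose size led to the choice of the network, was 9.95 to 10.63 over the settings run. The number of probe sets past the threshold was 60 (13 higher, 47 lower) and became 14 with no filter, 179 with a filter at the 60th percentile, 958 with array weights, 28 with 1 probe set a gene, 119 with values raised to the background limit and 7 to 137 without single arrays (15, 11 and 7 without tumour array 1, 2 or 3 and 137, 31 and 14 without normal array 1, 2 or 3). A fit with 1 array fewer has less power, and other causes were not tested. Quantile normalization gave 53 calls, 17 higher and 36 lower, so 32.1% were higher against 21.7% above. Array weights ranged from 0.24 for tumour array 3 to 4.76 for tumour array 2. They brought the cell cycle median to -0.24 and the network's probe sets past the threshold to 2, the second being Mycn 1417155_at (2.81). That probe set passed in 1 of the 15 settings that held it. Like other values of Mycn, it is a description.

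No partner of Mycn passed under any alternative, and several small differences changed sign. With array weights the difference was 0.11 for Myc 1424942_a_at, -0.20 for Mxd1 1455104_at, -0.0047 for Mxd4 1434378_a_at, -0.42 for Mxi1 1450376_at and 0.020 for Mga 1431232_a_at. Quantile normalization gave 0.033 for Mxd1 1434830_at, 0.077 for Mnt 1418192_at and 0.031 for Mga 1431232_a_at. Without single arrays the differences ran from -0.23 to 0.16 for Myc, -0.36 to 0.20 for Mxd1 1434830_at, -0.016 to 0.34 for Mxd1 1455104_at, -0.060 to 0.61 for Mxd4 1434378_a_at, -0.30 to 0.40 for Mxi1 1450376_at, -0.019 to 0.27 for Mxi1 1425732_a_at, -0.37 to 0.090 for Mnt and -0.063 to 0.20 for Mga 1434746_at. Ribosome targets had medians of -0.59 to 0.016 without single arrays, mitochondrial targets -0.41 to -0.15, translation targets -0.35 to -0.058, repressed targets 0.20 to 0.65 and all activated targets -0.56 to -0.19.

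Whether replicate numbers pair the arrays was not settled. Deviations of same-numbered tumour and normal arrays had correlations of 0.19, 0.31 and 0.015. Those of differently numbered arrays ran from -0.34 to 0.11, and tumour array 3 correlated better with normal array 2 (0.11). With the replicate block 53 probe sets passed (16 higher, 37 lower), of which 22 were among the 60.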

Other observations

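Beside Mycn 1425923_at, the probe sets ranked 1, 2 and 4 by positive difference have no gene listed. Probe set 1456182_x_at read 15.26, 15.01 and 14.61 on tumour arrays 1, 2 and 3 and 3.63, 3.67 and 3.48 on normal arrays 1, 2 and 3, a difference of 11.36. Probe set 1433438_x_at read 14.40, 13.98 and 13.56 on the tumour arrays and 3.40, 3.49 and 3.44 on the normal arrays, a difference of 10.54. Probe set 1456456_x_at read 13.65, 13.22 and 12.16 on the tumour arrays and 2.78, 2.79 and 2.73 on the normal arrays, a difference of 10.24. Like Mycn, all 3 were highest on tumour array 1, lowest on tumour array 3 among the tumour arrays, and at or near background in normal LEC. The suffix of their names marks probe sets whose probes can match more than 1 transcript.

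Named genes were ranked by the root mean square difference of their deviations from those of Mycn 1425923_at over the 6 arrays. The deviations were not scaled, so this distance largely follows the size of the difference, by which Mycn was chosen. It is a description and no measure of a shared pattern. The nearest were Rhox5, a homeobox gene, at 2.83, the interferon-induced Oas1a at 3.16 and Nts, the neurotensin precursor, at 3.21. After them came the MHC class I gene H2-Q5 at 3.28 and the complement gene C2 at 3.29. Rhox5 read 10.62, 7.67 and 10.48 on the tumour arrays and 3.14, 5.53 and 4.13 on the normal arrays, so it did not share the even height of Mycn within tumour LEC. H2-Q5 read 6.29, 6.89 and 7.26 on the tumour arrays and 2.33, 3.27 and 2.80 on the normal arrays, at background in normal LEC.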
